A study of Rattus norvegicus with 12 samples.

Results

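Transcripts of the Bcl-2 family, the proteins that decide whether the outer mitochondrial membrane is opened during apoptosis, were examined in RNA sequencing of the left ventricle of 12 male Sprague-Dawley rats. The members were 10 genes chosen by symbol: the anti-apoptotic Bcl2, Bcl2l1 (Bcl-xL) and Mcl1, the effectors Bax and Bak1, and the BH3-only genes Bid, Bad, Bbc3 (Puma), Pmaip1 (Noxa) and Bcl2l11 (Bim). Of these 10, 8 had a row among the 34700 genes of the deposited table, and Mcl1 and Bbc3 were not analysed here. The table lists Bax as ENSRNOG00000020876 and Bcl2 as ENSRNOG00000002791. The ratio of Bax to Bcl2 was also taken within each rat.

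There were 3 rats in each of 4 groups, all operated on at 8 weeks of age and sampled 12 weeks later. The Sham rats had the thread passed around the left anterior descending coronary artery without tying it, and were sedentary. The HF rats had heart failure after an infarct made by tying the artery, and were also sedentary. The HFE rats had the same infarct and then treadmill running, 60 min per session and 5 days a week, for 8 weeks. The BAIBA rats had the same infarct and were given β-aminoisobutyric acid (BAIBA), a small molecule that contracting muscle releases, by gavage at 75 mg/kg/day for 8 weeks. All 4 groups are thus operated animals of one strain and sex, and the ligated groups held only survivors of the infarct, divided by echocardiography 4 weeks after surgery. The methods give BAIBA to infarcted rats only, with water by gavage for Sham and HF. A supplement instead gives BAIBA to the Sham and HF groups. The methods were followed here, and the 1 group titled HF+Med was taken as the BAIBA group. Sham and HF groups are listed in both an exercise study and a BAIBA study. Neither titles nor methods say which study the Sham and HF rats here came from, and no gavage is described for HFE. Study and gavage thus cannot be told apart from treatment in BAIBA against HFE, and possibly in comparisons with HF or Sham. RNA came from the anterior wall of the left ventricle. The methods name the area around the infarct for the BAIBA group alone, whereas the study's results place both HF and BAIBA samples there. Position of the sample and the treatment or infarct thus cannot be told apart in comparisons of HF or BAIBA with Sham or HFE. If the methods are right, the same holds for BAIBA against HF. The mRNA of the whole tissue was measured, in which fewer cells of a type and less RNA per cell cannot be told apart.

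In the intrinsic pathway, Bax and Bak1 form pores in the outer mitochondrial membrane that release cytochrome c and lead to caspase activation. Bcl2, Bcl2l1 and Mcl1 bind and restrain them. BH3-only proteins either occupy these guardians (Bad, Pmaip1) or also activate Bax and Bak1 directly (Bid after cleavage, Bcl2l11). Cardiomyocytes rarely divide, so loss of cells after an infarct is hardly replaced, and the balance of Bax to Bcl2 is a common readout in the heart. Much of the family's control lies in cleavage, phosphorylation, location and turnover of the proteins, which RNA sequencing does not measure.

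The total count on genes was between 14812541 and 19732588 per rat. The 8 members were read from 35 counts (Bid in HF rat 2 and HFE rat 3) to 895 counts (Bcl2l1 in HFE rat 3) per rat. The 7 cardiomyocyte markers were present in every rat, with summed levels of 42200 to 45190 CPM (counts scaled to library size with TMM factors) in Sham, 35050 to 37650 in HF, 34910 to 40290 in HFE and 36220 to 45040 in BAIBA. The 5 lymphocyte markers summed to 88.75 CPM in HF rat 1 and to between 3.02 and 10.8 CPM in the other 11 rats. In that rat the T cell genes Cd3e (35.9 CPM), Cd3g (37.0 CPM) and Cd2 (14.8 CPM) were high, against at most 3.46, 3.29 and 3.78 CPM elsewhere, while the B cell genes Cd79b and Ms4a1 were at 0.573 and 0.459 CPM. HF rat 1 was also the rat with the most Bid and Pmaip1, so the differences of these genes from the HF group are given with and without it.

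On a scale corrected for gene length (FPKM, fragments per kilobase of gene scaled to depth), the order of the members was Bcl2l1, Bad, Bax, Bak1, Bcl2l11, Pmaip1, Bcl2 and Bid. The mean FPKM over the 12 rats was 9.61 ± 2.72 for Bcl2l1 (SD, n = 12), 8.89 ± 1.01 for Bad, 7.37 ± 1.32 for Bax and 7.34 ± 0.876 for Bak1. It was 4.03 ± 0.519 for Bcl2l11, 3.08 ± 1.501 for Pmaip1, 2.56 ± 0.559 for Bcl2 and 1.95 ± 1.33 for Bid. Bak1 exceeded Bcl2l11 in 12 of 12 rats, so the family fell into an upper set of 4 and a lower set of 4. Within the sets the order was loose: Bcl2l1 was above Bad in 7 rats, Bax above Bak1 in 6 and Pmaip1 above Bcl2 in 6, so these neighbours did not differ beyond their spread. Bad was above Bax in 10 rats, Bcl2l11 above Pmaip1 in 10 and Bcl2 above Bid in 9. The gene lengths that the counts and FPKM values imply ran from 1001 bases for Bad to 5141 bases for Bcl2l11. Of the 2 guardians with a row, Bcl2l1 was thus the more abundant mRNA, and Bcl2 was in the lower set.

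**Figure D1:**
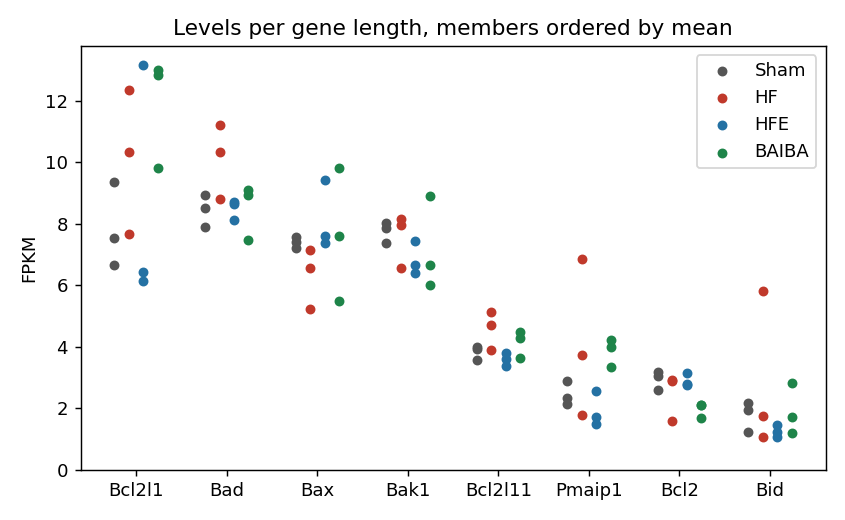
FPKM of the 8 Bcl-2 family members in each of the 12 rats (points, coloured by group), with genes ordered by their mean along the x axis. Bcl2l1, Bad, Bax and Bak1 have means from 7.34 to 9.61 FPKM, and the other 4 members have means from 1.95 to 4.03 FPKM.

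The stretch just before the RefSeq start of transcription was read for the members in the GRCr8 assembly, where all measured members but Bax had an entry. The start used there need not be that of the deposited gene models, whose build is not given. The 250 bases are shown for Bcl2 and Bcl2l11, the members with the lowest and the highest share of G and C (33.6% and 72.0%, against a median of 51.2% over all RefSeq rat promoters of that length). Both are written in the direction of transcription and end at the base before the start. Bcl2 is at chr13:23366901-23367150 on the minus strand and Bcl2l11 at chr3:135819792-135820041 on the plus strand. Capitals mark matches to the letters TATAAA in Bcl2, and to GGGCGG (the GC box) and CCAAT in Bcl2l11, of which the CCAAT match is on the opposite strand.
Bcl2: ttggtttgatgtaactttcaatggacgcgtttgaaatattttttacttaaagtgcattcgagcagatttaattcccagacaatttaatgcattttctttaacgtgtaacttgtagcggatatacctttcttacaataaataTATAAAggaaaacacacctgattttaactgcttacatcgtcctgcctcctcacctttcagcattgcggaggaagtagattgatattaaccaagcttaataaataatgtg
Bcl2l11: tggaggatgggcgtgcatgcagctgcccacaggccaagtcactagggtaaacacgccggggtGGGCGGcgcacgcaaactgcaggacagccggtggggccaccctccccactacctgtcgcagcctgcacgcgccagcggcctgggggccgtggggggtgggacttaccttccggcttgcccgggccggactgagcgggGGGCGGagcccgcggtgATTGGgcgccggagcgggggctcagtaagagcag
The TATAAA match of Bcl2 begins 109 bases before the start, and 12.9% of 33469 promoters hold this motif on either strand. The GC boxes of Bcl2l11 begin 188 and 51 bases before its start, and 30.5% of promoters hold at least one. CCAAT was found in 34.0% of promoters, and begins 34 bases before the start of Bcl2l11. Neither CACGTG nor TGACGTCA was found in the window of any measured member with an entry.

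The question put to the HF and Sham groups was which members changed with the infarct and heart failure. No member differed at an adjusted p under 0.05 in edgeR's quasi-likelihood test, none had an unadjusted p under 0.05, and DESeq2 and limma also called 0 members. Over all 14957 genes tested, edgeR called 0%, while 6.0% had an unadjusted p under 0.05. DESeq2 called 52 of 23314 genes. In 3 of 8 members the rats of the groups did not overlap (Bad and Bcl2l11 higher in HF, Bax lower), against 11.8% of all genes. The median log2 difference of the 8 members was 0.28, beside 0.01 for all genes tested, and it was 0.10 without HF rat 1. The summed cardiomyocyte markers were lower in every HF rat than in every Sham rat. Of the 7, only Myh6 (log2 difference -0.62) and Pln (-0.24) were lower without overlap. Myh6 was at 17420 to 19600 CPM in Sham and 11250 to 13880 CPM in HF. Tnnt2 (-0.0073), Actn2 (-0.015), Mb (-0.018), Tnni3 (-0.047) and Ryr2 (-0.24) overlapped. The part of these markers in the values of the members was not tested.

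Bad, the BH3-only protein that survival kinases hold inactive by phosphorylation, was at 7.96, 8.75 and 8.34 CPM in the Sham rats and at 10.7, 8.90 and 10.8 CPM in the HF rats. The lowest HF rat was just above the highest Sham rat, with a log2 difference of 0.28 (SE 0.14, adjusted p = 0.808, edgeR). Bcl2l11, which binds all guardians, was at 18.4, 19.8 and 20.03 CPM in Sham and at 23.0, 20.2 and 27.5 CPM in HF. The groups again only just separated, and the log2 difference was 0.28 (SE 0.13, adjusted p = 0.805, edgeR), or 0.16 without HF rat 3.

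Bax was the steadiest member in Sham hearts, at 9.29, 9.47 and 9.26 CPM. It was at 8.66, 6.75 and 8.74 CPM in HF, below all 3 Sham rats. The log2 difference of -0.22 (SE 0.15, adjusted p = 0.843, edgeR) did not exceed the spread between rats by the test, and it was -0.11 without HF rat 2. Its fellow effector Bak1 was at 15.5 ± 0.867 CPM in Sham (SD, n = 3) and 15.3 ± 1.74 CPM in HF.

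The guardians overlapped between HF and Sham. Bcl2 was at 6.29, 6.42 and 5.19 CPM in Sham and at 5.68, 6.01 and 3.39 CPM in HF, where HF rat 3 alone lay below all Sham rats (log2 difference -0.25, SE 0.25, adjusted p = 0.891, edgeR). Without that rat the difference was -0.032, and without HF rat 2 it was -0.41. Bcl2l1 was at 31.3, 26.9 and 37.7 CPM in Sham and at 48.3, 31.8 and 44.5 CPM in HF, where HF rats 1 and 3 lay above all Sham rats (log2 difference 0.38, SE 0.18, adjusted p = 0.808, edgeR).

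Bid and Pmaip1 varied most within the HF group. Bid was at 3.92, 4.21 and 2.36 CPM in Sham and at 11.01, 2.15 and 3.60 CPM in HF, so that the log2 difference of 0.67 (SE 0.60) came to -0.28 (SE 0.36) without HF rat 1. Pmaip1, a p53 target that binds Mcl1, was at 6.46, 5.77 and 7.81 CPM in Sham and at 18.0, 4.97 and 10.8 CPM in HF. Its log2 difference of 0.75 (SE 0.43) was 0.24 (SE 0.33) without HF rat 1 and 1.10 (SE 0.25) without HF rat 2, so HF rats 1 and 2 stood at opposite ends. The summed lymphocyte markers were 4.005 to 5.77 CPM in Sham and 3.02 to 88.75 CPM in HF, and their part in the Bid and Pmaip1 values was not tested. Without HF rat 2, 4 members had an unadjusted p under 0.05 (Bad, Bcl2l11, Bcl2l1 and Pmaip1, with higher means in HF), against 5.96% of all genes in that fit, and none passed at the adjusted threshold. The count was 1 without Sham rat 3 and 0 without any of the other 4 rats.

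**Figure D2:**
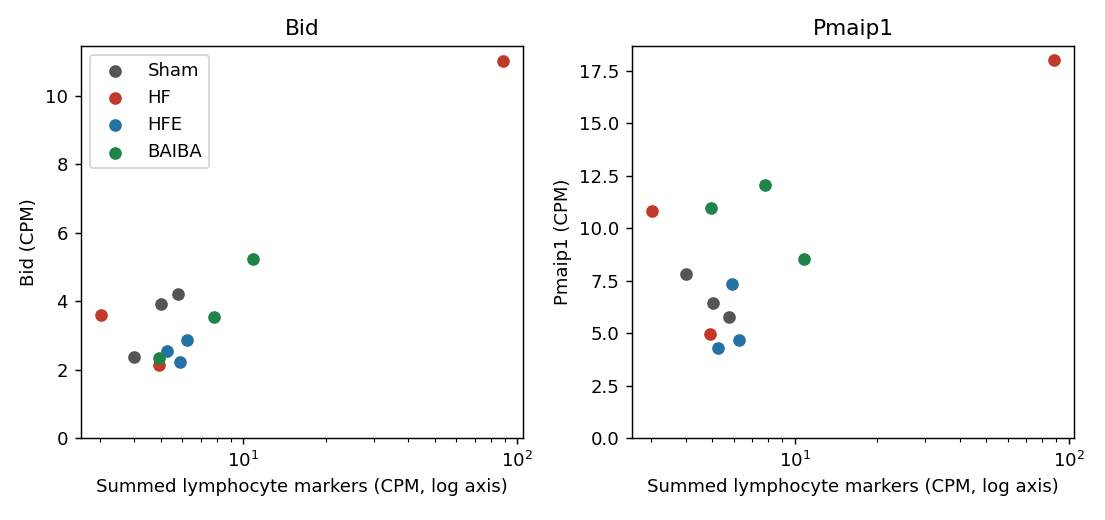
Bid (left) and Pmaip1 (right) in CPM on the y axis against the summed CPM of 5 lymphocyte markers on a log x axis, with 1 point per rat coloured by group. HF rat 1 stands alone at 88.75 CPM of markers with 11.01 CPM of Bid and 18.0 CPM of Pmaip1, while the other 11 rats have at most 10.8 CPM of markers.

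The effect of exercise was addressed by HFE against HF. No member was called by edgeR, DESeq2 or limma, against 0% of 14938 genes in edgeR and 46 of 23253 genes in DESeq2. In edgeR, 2 of 8 members (Bax higher, Bcl2l11 lower) had an unadjusted p under 0.05, against 7.62% of all genes, and 1 of 8 (Bax) did not overlap, against 14.4%. The median log2 difference of the members was -0.20, beside -0.01 for all genes tested. These comparisons share the HF rats with the one against Sham, so the values on both sides of HF are not independent of each other.

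Bax was at 11.9, 10.2 and 9.81 CPM in the HFE rats, all above the 3 HF rats (8.66, 6.75 and 8.74 CPM). The log2 difference was 0.40 (SE 0.16, unadjusted p = 0.0428, adjusted p = 0.648, edgeR's quasi-likelihood test). The 5 macrophage markers summed to 51.2 to 71.2 CPM in HFE and 71.3 to 134 CPM in HF, so every HFE rat was lower, and 2 of the 5 (Cd163 and Mrc1) did not overlap. Of the 7 cardiomyocyte markers, 3 (Tnni3, Tnnt2 and Mb) were higher in every HFE rat than in every HF rat. Pln (log2 difference 0.18), Actn2 (-0.08), Myh6 (-0.12) and Ryr2 (-0.22) overlapped. The sums also overlapped, at 34910 to 40290 CPM in HFE and 35050 to 37650 CPM in HF. The part of these markers in the Bax and Bcl2l11 values was not tested. Bcl2l11 was at 18.3, 20.35 and 18.2 CPM in HFE, where HFE rat 2 lay just above the lowest HF rat (20.24 CPM). Its log2 difference was -0.32 (SE 0.13, unadjusted p = 0.0478, adjusted p = 0.648, edgeR), or -0.19 without HF rat 3. Neither unadjusted p stayed under 0.05 when HF rat 3, HFE rat 1 or HFE rat 2 was left out, after which 0 members were under it. The count was 1 without HF rat 1 (Bax) and 3 without HF rat 2 (Bid, Bcl2l11 and Pmaip1, against 7.05% of all genes). It was 2 without HFE rat 3 (Bcl2l1 and Bax, against 6.065% of all genes). In DESeq2 the 2 members under 0.05 were a different pair, Pmaip1 and Bid, against 4.71% of all genes, and limma had 0.

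Bid and Pmaip1 had their lowest group means in HFE, at 2.55 and 5.43 CPM. Bid was at 2.86, 2.56 and 2.22 CPM, and its log2 difference from HF of -1.13 (SE 0.59) was -0.18 (SE 0.32) without HF rat 1 and -1.52 (SE 0.47) without HF rat 2. Pmaip1 was at 4.66, 4.29 and 7.35 CPM, with a log2 difference of -1.05 (SE 0.47, adjusted p = 0.648, edgeR), which was -0.54 (SE 0.39) without HF rat 1 and -1.40 (SE 0.32) without HF rat 2. The lymphocyte markers summed to 5.26 to 6.26 CPM in HFE. Bad was at 8.72 ± 0.346 CPM in HFE (SD, n = 3), with a log2 difference of -0.22 (SE 0.14).

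The guardians of the HFE rats differed among themselves. Bcl2 was at 5.59, 6.02 and 6.78 CPM (log2 difference from HF 0.29, SE 0.25), and the difference was 0.065 without HF rat 3 and 0.44 without HF rat 2. Bcl2l1 was at 26.2 and 26.5 CPM in HFE rats 1 and 2, the lowest values of all 12 rats, and at 56.7 CPM in HFE rat 3, the highest. The log2 difference of Bcl2l1 from HF was -0.19 (SE 0.34), and it was -0.66 without HFE rat 3 and -0.068 without HF rat 1.

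**Figure D3:**
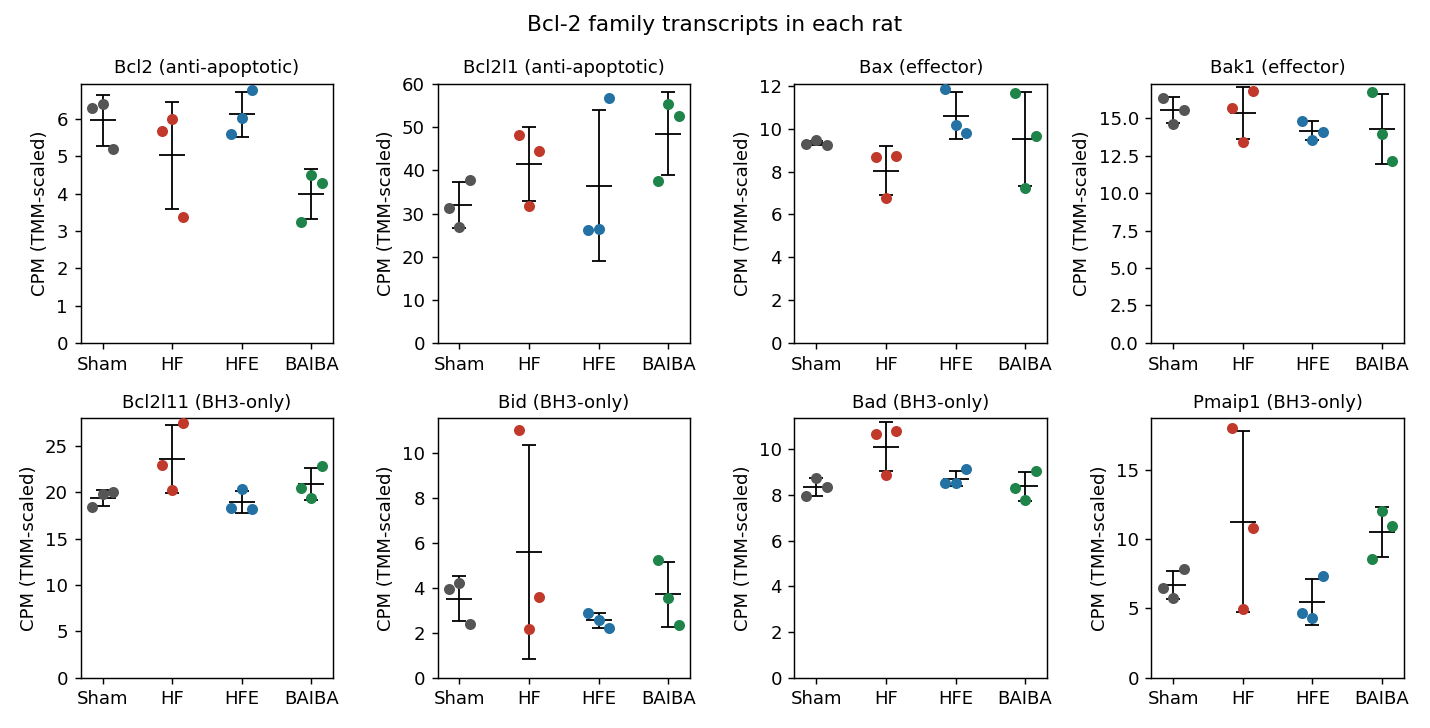
CPM (TMM-scaled) of the 8 measured members in each of the 12 rats, with 1 panel per gene and a y axis from 0. Points are rats, horizontal bars are group means and error bars are 1 SD (n = 3); Bid and Pmaip1 spread most in HF, and the 3 BAIBA rats lie below the 3 HFE rats for Bcl2 and above them for Pmaip1.

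The effect of BAIBA in infarcted hearts was addressed by BAIBA against HF. Again 0 members were called by edgeR, DESeq2 and limma, against 0% of 15039 genes in edgeR and 38 of 23552 genes in DESeq2. None of the 8 had an unadjusted p under 0.05 in edgeR, against 5.55% of all genes, and the groups overlapped for all 8, against 11.4% of genes without overlap. The median log2 difference was -0.14 for the members and -0.01 for all genes tested, and the members' median turned to 0.11 without HF rat 1. Bcl2 was at 3.24, 4.49 and 4.28 CPM in the BAIBA rats, which put HF rat 3 (3.39 CPM) inside their range (log2 difference -0.33, SE 0.28, adjusted p = 0.876, edgeR). Bax was at 11.7, 7.25 and 9.65 CPM, with BAIBA rat 2 below HF rats 1 and 3 (log2 difference 0.24, SE 0.22, adjusted p = 0.885, edgeR). Bcl2l1 differed by 0.22 (SE 0.20), Bak1 by -0.10 (SE 0.17), Bad by -0.28 (SE 0.16) and Bcl2l11 by -0.18 (SE 0.14) on the log2 scale. Bid, at 5.24, 3.53 and 2.35 CPM in BAIBA, differed by -0.59 (SE 0.62), and by 0.37 (SE 0.41) without HF rat 1. Pmaip1 differed by -0.10 (SE 0.42), and by 0.42 (SE 0.34) without HF rat 1. With each rat left out, the difference ranged from -0.55 (without HF rat 3) to -0.18 (without HF rat 2) for Bcl2, from 0.07 (without BAIBA rat 1) to 0.40 (without BAIBA rat 2) for Bax and from 0.06 (without HF rat 2) to 0.38 (without BAIBA rat 1) for Bcl2l1.

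BAIBA and exercise were set side by side in BAIBA against HFE, the comparison with the most differences over all genes. In edgeR 16 of 14844 genes (0.108%) were called, and 50 genes in the fit blocked on replicate number, and no member was among them in either fit. DESeq2 called 326 of 23294 genes, 1 of them a member. By unadjusted p, 2 of 8 members were under 0.05 (Pmaip1 higher and Bcl2 lower in BAIBA), against 9.57% of all genes, and the same 2 of 8 did not overlap, against 15.5%. The median log2 difference was 0.08 for the members and 0.00 for all genes tested.

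Pmaip1 was at 8.53, 12.1 and 10.98 CPM in the BAIBA rats and at 4.66, 4.29 and 7.35 CPM in the HFE rats, so the lowest BAIBA rat was above the highest HFE rat. The log2 difference was 0.95 (SE 0.24, unadjusted p = 0.00451, adjusted p = 0.237, edgeR's quasi-likelihood test). DESeq2 called it, with a log2 difference of 0.95 and an adjusted p of 0.0472, and over all alternatives the adjusted p ranged from 0.0472 to 0.648. With each rat left out in turn the log2 difference stayed between 0.81 and 1.23. Neither group holds HF rat 1, and the lymphocyte markers summed to 4.95 to 10.8 CPM in BAIBA.

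Bcl2 was at 3.24, 4.49 and 4.28 CPM in BAIBA and at 5.59, 6.02 and 6.78 CPM in HFE, without overlap. The log2 difference was -0.61 (SE 0.21, unadjusted p = 0.0174, adjusted p = 0.378, edgeR), and with each rat left out it stayed between -0.70 and -0.49. The adjusted p ranged from 0.281 to 0.755 over the alternatives. The 5 macrophage markers summed to 81.9 to 160 CPM in BAIBA and 51.2 to 71.2 CPM in HFE, the 5 erythroid markers to 905 to 1304 CPM and 721 to 827 CPM, and neither pair of ranges overlapped. Their part in the Pmaip1 and Bcl2 values was not tested.

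The other 6 members overlapped between BAIBA and HFE. Bid differed by 0.55 (SE 0.33), Bcl2l1 by 0.41 (SE 0.33), Bcl2l11 by 0.14 (SE 0.12), Bak1 by 0.02 (SE 0.15), Bad by -0.06 (SE 0.15) and Bax by -0.15 (SE 0.20) on the log2 scale, with adjusted p from 0.674 to 0.988 (edgeR). Without HFE rat 3 the difference of Bcl2l1 was 0.88 (SE 0.18, unadjusted p = 0.00175, adjusted p = 0.196, edgeR), and without HFE rat 1 it was 0.22. Bid differed by 0.20 without BAIBA rat 1 and by 0.79 without BAIBA rat 3, and Bax by -0.33 without BAIBA rat 1. Across all 4 groups at once, no member was called by edgeR, DESeq2 or limma, against 0% of 15617 genes in edgeR and 333 of 24604 genes in DESeq2. Pmaip1 was the single member with an unadjusted p under 0.05 (0.0489, adjusted p = 0.513, edgeR), against 9.71% of all genes. Without HF rat 1 the p of Pmaip1 was 0.0412 (edgeR, unadjusted). The count was 3 without HF rat 2 (Pmaip1, Bcl2l11 and Bid, against 9.84% of all genes), 2 without HFE rat 3 (8.74% of all genes) and 1 without HF rat 1 or HF rat 3. It was 0 without any 1 of the Sham rats, the BAIBA rats, HFE rat 1 or HFE rat 2, and also 0 with the replicate block, with no filter beyond 1 count and with limma.

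**Figure D4:**
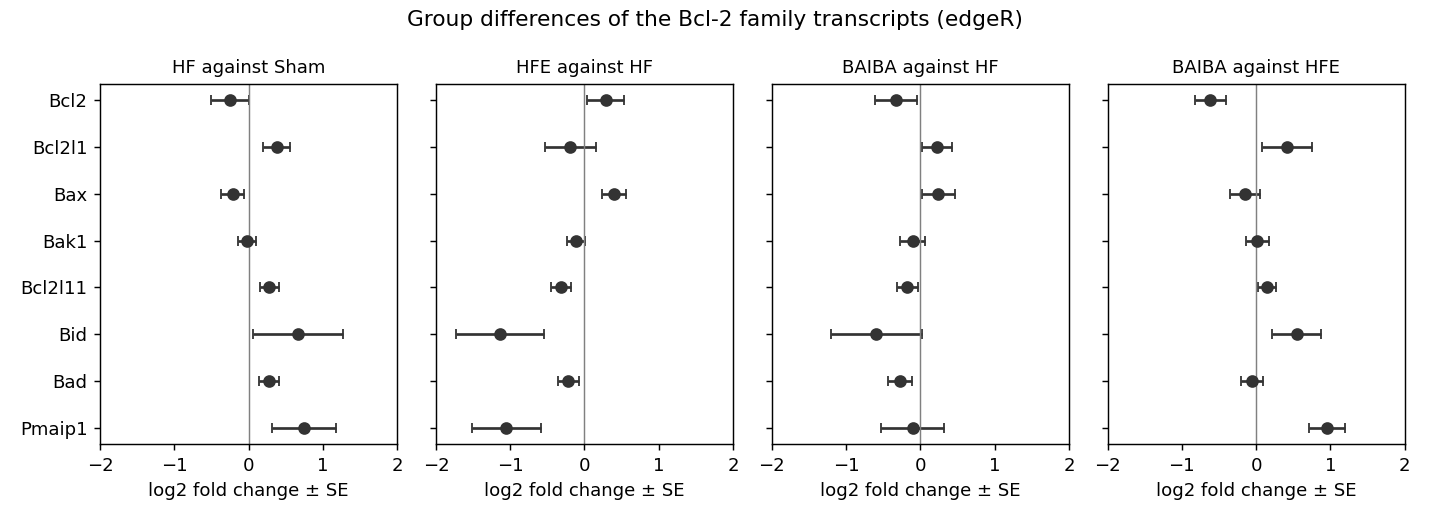
log2 fold change of each member in the 4 comparisons, with 1 panel per comparison; points are edgeR estimates and bars are 1 SE. Bars of Bid and Pmaip1 are widest where the HF group is involved, and Pmaip1 at 0.95 and Bcl2 at -0.61 in BAIBA against HFE lie farthest from 0 for their SE.

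The ratio of Bax to Bcl2 within a rat, in which library scaling cancels, was taken on FPKM. It was 2.38, 2.38 and 2.88 in the Sham rats, 2.46, 1.81 and 4.15 in HF, 3.41, 2.72 and 2.33 in HFE, and 5.80, 2.60 and 3.63 in BAIBA. Every rat had more Bax than Bcl2 mRNA per length, and every pair of groups compared overlapped. The Sham rats were the tightest and BAIBA rat 1 the highest. Counts were 110 to 209 for Bax and 58 to 109 for Bcl2. The counting error (SD) of the log2 ratio of 1 rat from these was 0.18 to 0.22. That was below the SD among rats of 0.61 in HF, 0.58 in BAIBA and 0.28 in HFE, and about that of 0.16 in Sham.

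On the log2 scale the ratio differed by 0.06 (SE 0.36) in HF against Sham, and the two-sided exact permutation p was 0.8. It differed by 0.08 (SE 0.38) in HFE against HF (exact p = 0.9), by 0.52 (SE 0.49) in BAIBA against HF (exact p = 0.4), and by 0.45 (SE 0.37) in BAIBA against HFE (exact p = 0.3). With 3 rats against 3 the smallest p is 0.1, and the Benjamini-Hochberg adjusted p over the 4 comparisons was 0.8 or 0.9 (exact permutation test). Over all 12 rats, 28.1% of the variance of the log2 ratio lay between groups, and 15400 divisions of the rats gave an exact permutation p of 0.445. When Bcl2l1 was added to Bcl2 in the denominator, an alternative chosen after the data were seen, the difference turned to -0.45 (exact p = 0.1) in HF against Sham and to -0.44 (exact p = 0.5) in BAIBA against HFE. It was 0.54 (exact p = 0.4) in HFE against HF and 0.10 (exact p = 0.8) in BAIBA against HF. The ratio with Bcl2l1 added was 0.468, 0.496 and 0.549 in the HF rats and 0.683, 0.768 and 0.621 in the Sham rats. These groups did not overlap, so the exact p of 0.1 there is the smallest possible.

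**Figure D5:**
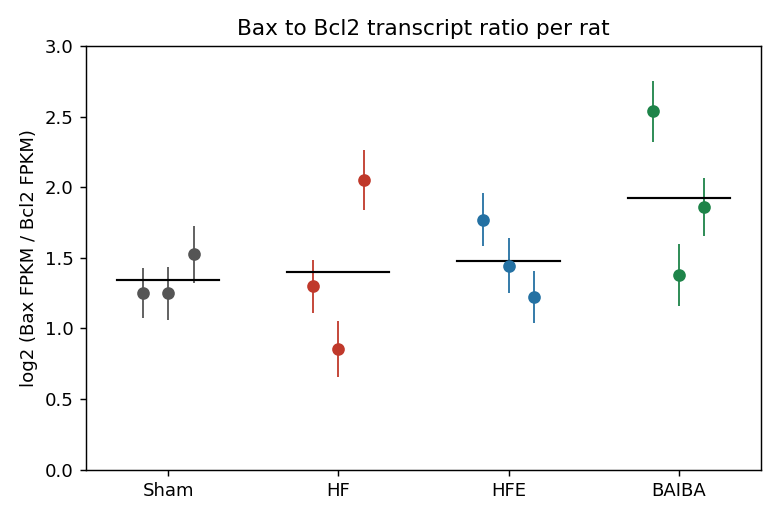
log2 ratio of Bax FPKM to Bcl2 FPKM in each rat (points) by group; horizontal lines are group means and vertical bars are 1 SD of counting error. The groups overlap, with means of 1.34 in Sham, 1.40 in HF, 1.48 in HFE and 1.93 in BAIBA.

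Members differed in how much they varied between rats of one group. The SD of log2 CPM within groups was 0.10 for Bad, 0.14 for Bcl2l11, 0.15 for Bak1, 0.21 for Bax and 0.28 for Bcl2. It was 0.41 for Bcl2l1, 0.53 for Pmaip1 and 0.69 for Bid, beside a median of 0.24 over all genes. Among the 500 genes nearest in level, Bad was at the percentile 1.0 of spread, Bcl2l1 at 96.0, Pmaip1 at 91.6 and Bid at 90.8. Without HF rat 1, as an alternative chosen after the data were seen, Pmaip1 had an SD of 0.41 and the percentile 82.0, and Bid an SD of 0.43 and the percentile 69.6.

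Bcl2l1 and Pmaip1 varied together from rat to rat. Over the 12 rats Pearson's r of their log2 CPM was 0.81 (permutation p = 0.0018, adjusted 0.0504 over the 28 pairs of members) and Spearman's rho was 0.80 (permutation p = 0.00313, adjusted 0.0876). Neither adjusted p was under 0.05. Without the 2 rats farthest from the median of Bcl2l1, r was 0.91, and without HF rat 1 it was 0.85. With the group means removed it was 0.78, and rearranging the rats within groups in all 1296 ways gave an exact permutation p of 0.00154 (adjusted 0.0432). In Sham, HF and BAIBA the 3 rats had the same order for both genes. Bad and Bcl2l11 had an r of 0.78 (permutation p = 0.00496, adjusted 0.0694) and a rho of 0.43 (permutation p = 0.162, adjusted 0.677). With the group means removed their r was 0.74 (exact permutation p = 0.0864, adjusted 0.668). Without the 2 rats farthest from the median of Bad, r was 0.29. The size of r thus depended on those rats, whose removal also narrows the range of Bad.

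By the rule for likeness, the 5 genes whose log2 CPM followed Bax most closely over the 12 rats, among 14213 genes, were Sdhd (r = 0.87), a subunit of respiratory complex II, Snx11, Wnt11, Cav3 and Tymp (r = 0.83). For Bcl2 they were Brms1l (r = 0.88), Lnx1, Ets2, Rasgrp3 and Pdcd1lg2 (r = 0.85). These are the highest of many correlations, given as a description.

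The wider pathway was followed with 49 genes in 5 lists, of which 47 had a row and 42 to 44 passed the filter on low counts in each comparison. None was called by edgeR or DESeq2 in any comparison. By unadjusted p, 0 of 43 were under 0.05 in HF against Sham (6.0% of all genes), 1 of 44 in HFE against HF (7.62%), 3 of 42 in BAIBA against HF (5.55%), 3 of 42 in BAIBA against HFE (9.57%) and 3 of 44 across the 4 groups (9.71%). In HFE against HF the gene was Foxo3, a transcription factor that induces BH3-only genes, with a log2 difference of -0.81 (SE 0.24, unadjusted p = 0.0107, adjusted p = 0.627, edgeR). It was at 14.1 to 20.1 CPM in HF and at 6.59 to 12.1 CPM in HFE, where the groups did not overlap, and at 13.1 to 16.4 CPM in Sham and 9.26 to 16.8 CPM in BAIBA.

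In BAIBA against HF the genes were Ddit3 (log2 difference 0.36), Atf4 (0.25) and Apaf1 (-0.45), of which Ddit3 and Apaf1 were named after their values were seen. Atf4 and Ddit3 are transcription factors of the stress response of the endoplasmic reticulum, and Apaf1 is the scaffold of the apoptosome. In BAIBA against HFE they were Fbxw7 (log2 difference -0.43), a ubiquitin ligase subunit that marks Mcl1 for degradation, Akt1 (-0.31), a survival kinase that phosphorylates Bad, and Birc2 (0.31), an inhibitor of apoptosis. Fbxw7 was at 34.8 to 45.3 CPM in HFE and 29.3 to 31.9 CPM in BAIBA, and its unadjusted p across the 4 groups was 0.0161 (adjusted p = 0.426, edgeR). Akt1 was at 205 to 231 CPM in HFE and 168.5 to 184 CPM in BAIBA, and Birc2 at 30.6 to 32.9 CPM in HFE and 35.98 to 45.8 CPM in BAIBA.

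By list, the 2 genes with the smallest p across the 4 groups among other Bcl-2 relatives were Bcl2l15 (unadjusted p = 0.0747, edgeR) and Bcl2a1 (0.194), of which 10 were tested. Among 12 genes of the mitochondrial death machinery they were Vdac3 (0.0847), a channel of the outer membrane, and Aifm1 (0.102), with no unadjusted p under 0.05. Among 5 inhibitors of apoptosis they were Birc5 (0.0367) and Birc2 (0.0670). Birc5, survivin, was at 0.635 to 1.05 CPM in Sham. In HF it was at 2.58 CPM in HF rat 1, 0.798 CPM in HF rat 2 and 0.583 CPM in HF rat 3. It was at 0.570 to 1.13 CPM in HFE and 0.192 to 0.422 CPM in BAIBA, so its counts were low everywhere. Among 8 inducers and genes of the p53 axis they were Foxo3 (0.0454) and Atf4 (0.0851), and among 9 genes of turnover and kinases Fbxw7 and Akt1 (0.0503).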

How the data were processed

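RNA bound to oligo(dT) beads from the left ventricle of 12 rats was sequenced in pairs. The authors used HISAT2 for alignment and StringTie to add genes missing from the annotation, then counted reads per gene with featureCounts. The deposited counts were not normalized, and the deposited FPKM values were made by the authors from these counts and gene lengths. The processing notes of the labels name mm9, a mouse build, while the gene identifiers are rat, so the rat build is not given in the sources used here. Strand use in counting is not given either, so reads of antisense partners cannot be told apart. Each numbered sample was taken as 1 rat, since the labels give rat heart and 3 numbers in each group. Neither they nor the methods say whether hearts were pooled or split, so p-values measure the spread between these samples.

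Counts were fitted with edgeR 4.0.16 in R 4.3.3 (TMM, filterByExpr, robust quasi-likelihood F-test) on the 2 groups compared, and on 12 rats for the test across 4 groups, with Benjamini-Hochberg adjustment over all genes tested and a threshold of 0.05. All 8 measured members passed the filter in every comparison. SE was taken from the fold change on the log2 scale and the F statistic. CPM used TMM factors over 12 rats. Alternatives were DESeq2 1.42.0, limma 3.58.1 on log2(FPKM + 1) and log2(FPKM + 0.1), other scalings and filters, a fit of all 12 rats, a replicate block and each rat left out. Replicates of a group differed by 11.8 to 33.7 in chi-square per degree of freedom, so none was a repeat deposit. Tested on simulated data, BAIBA against HFE recovered 57.5% of 200 genes changed 2-fold and 96% of those changed 4-fold among 14844 genes. At 2-fold, recovery was 57.5% in HF against Sham, 56% in HFE against HF and 50.5% in BAIBA against HF. The changed genes were drawn above a minimum mean count, so recovery at lower counts was not measured. Changes under 2-fold were not simulated either, and most differences of the members were smaller than that. Per simulation, 6 to 18 unchanged genes were called.

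Deviations of rats with the same number correlated over 0.1 in all 3 pairs only for BAIBA against HFE (r = 0.174, 0.224 and 0.118). Rats with different numbers were at -0.148 to -0.023 in that comparison, but reached 0.142 elsewhere (BAIBA rat 2 with HF rat 3). Such values do not establish pairing, and whether numbers mark a shared batch was not settled. The main fits used no block, and pairing by number was used only in the replicate block. Named genes were all members, from each list the 2 with the smallest p across the 4 groups, and the 5 genes most like Bax and Bcl2. The members and lists were chosen with earlier results of these data known. Promoters came from RefSeq (GRCr8). One lymphocyte marker is not reported here and was left out of that list's sum.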

Additional observations from a re-analysis of the deposited data

How the results depend on the processing

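The planned ratio with Mcl1 in the denominator was not run, since Mcl1 was not analysed here. DESeq2 called 1 member in BAIBA against HFE (Pmaip1), against 0 in edgeR, and no other alternative called any member in any comparison. For all genes in BAIBA against HFE, edgeR called 16, DESeq2 326, the replicate block 50, no filter beyond 1 count 50, library size alone 7 and the fit of all 12 rats 3, and the cause was not tested. With Bcl2l1 added to Bcl2, the log2 Bax ratio reversed to -0.45 in HF against Sham and -0.44 in BAIBA against HFE. Leaving out each rat, it ranged from -0.27 to 0.33 in HF against Sham, from -0.20 to 0.40 in HFE against HF, from 0.22 (without BAIBA rat 1) to 0.85 (without HF rat 3) in BAIBA against HF, and from 0.14 (without BAIBA rat 1) to 0.72 (without BAIBA rat 2) in BAIBA against HFE. Log2 differences of some single members also turned sign, including those of Bid at 0.67 and -0.59. Pmaip1 in BAIBA against HF was 0.0402 and 0.0891 with limma on log2(FPKM + 1) and log2(FPKM + 0.1), and Bad in BAIBA against HFE was 0.0025 with library size alone. Leaving out each rat, the ranges that crossed 0 were -0.23 to 0.0069 (Bak1) and -0.98 to 0.37 (Bid) and -0.46 to 0.42 (Pmaip1) in BAIBA against HF, -0.12 to 0.13 (Bak1) and -0.33 to 0.0098 (Bax) in BAIBA against HFE, -0.094 to 0.060 (Bak1) and -0.28 to 1.05 (Bid) in HF against Sham, and -0.66 to 0.00089 (Bcl2l1) in HFE against HF. Depth limits Bid most, with 35 counts in each of 2 rats.

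With the replicate block, Pmaip1 was 0.97 and Bcl2 -0.62 in BAIBA against HFE (adjusted p = 0.140 and 0.281, edgeR), and Pmaip1 reversed to 0.051 in BAIBA against HF. The block changed no call of a member, and 0 members were called in each of the 4 comparisons with it. In the other 3 comparisons, same-number correlations ran from -0.079 to 0.125.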

Other observations

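The ratio of Bcl2l1 to Bcl2 (FPKM) was chosen after its values were seen and is given as a description. It was 5.81, 6.17 and 6.14 in the 3 BAIBA rats, the tightest of the 4 groups in relative terms, with a mean of 6.04 ± 0.202 (SD, n = 3). It was 2.48, 2.09 and 3.63 in Sham, 4.25, 2.65 and 6.56 in HF and 2.34, 2.20 and 4.18 in HFE. Every BAIBA rat was above every Sham and HFE rat, while HF rat 3 was above all of them.

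Other cell type markers were summed for each rat. Fibroblast markers were at 1514 to 1635 CPM in Sham, 1184 to 1719 in HF, 1121 to 1564 in HFE and 1472 to 2097 in BAIBA. The 4 endothelial markers with a row ranged from 414 to 795 CPM over all rats, and neutrophil markers from 2.09 to 10.03 CPM. Atrial markers ranged from 12.3 to 538 CPM, with wide spread inside each group.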
